A study of Mus musculus with 7 samples.

Results

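The 10 genes described here encode the neuronal repressor REST, the CoREST scaffolds RCOR1, RCOR2 and RCOR3, the enzymes that sit on them (the histone demethylase KDM1A and the deacetylases HDAC1 and HDAC2), and the chromatin readers L3MBTL1, L3MBTL2 and L3MBTL3. They were taken by gene symbol out of the 46333 genes counted in 7 RNA sequencing libraries from mouse brain neurons. The set was chosen by the CPM of Rcor2 and L3mbtl1, which were low in the cre+ libraries of this comparison, and the other 8 genes were added as their relatives and partners. The difference of these 2 genes between genotypes is therefore given as a description, without a test. All 10 genes passed the filter on low counts, with 298 to 11518 reads per gene and library.

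REST is a zinc finger protein that binds the RE1 element near genes of the mature neuron and holds them silent in cells that are not neurons. It recruits CoREST, in which an RCOR protein ties the demethylase KDM1A (LSD1) to HDAC1 or HDAC2. CoREST is also brought to DNA by other zinc finger proteins, so its subunits are used in neuronal progenitors and in blood formation as well. MBT domains bind histone tails with few methyl groups on lysine, and L3MBTL proteins compact chromatin or keep genes repressed.

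Neurons came from whole brains of adult female mice. The brains were dissociated and then depleted of microglia, oligodendrocytes and astrocytes with antibodies on magnetic beads. The study does not name vessel cells or meninges among the targets of these antibodies. The study stained the isolates by flow cytometry, with endothelial and immune cells among the stained types, and reports a high neuronal purity. That purity is a share of cells, and the marker levels given below are of RNA. In the cre+ group (3 libraries) the mice were il4ra fl/fl and carried the Syn cre transgene, in which the synapsin 1 promoter drives Cre in neurons. The cre- group (4 libraries) held il4ra fl/fl littermates without Cre, so both groups carried floxed alleles of the interleukin-4 receptor alpha gene. A group with Cre and unfloxed il4ra was not analysed here, and an effect of Cre itself cannot be told apart from loss of the receptor. The comparison asks which transcripts of neurons differ when IL-4Rα is deleted in them.

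Libraries held 68213223 to 94376841 counted reads. Il4ra itself had 29.5, 28.7 and 24.4 CPM (counts scaled to library size) in cre+ libraries, against 20.03, 23.2, 29.6 and 22.4 CPM in cre- libraries. The deletion removes internal exons, so the count over the whole gene does not check the genotype. The libraries are labelled as neurons. The defining neuron markers Rbfox3 and Dcx were above 0 in every library, but markers of other cells were present at high levels, and the summed endothelial markers were above the summed neuron markers in all 7 libraries (sums of CPM, not scaled to gene length). The summed level of 14 endothelial markers was 13899 to 20107 CPM in cre+ libraries and 8627 to 12426 CPM in cre- libraries. That of 14 neuron markers was 1397 to 2647 CPM in cre+ libraries and 2618 to 4187 CPM in cre- libraries. Immature neuron markers summed to 2869 to 3886 CPM in cre+ libraries and 4291 to 4765 CPM in cre- libraries. DESeq2 called 12 of 14 endothelial, 7 of 12 mural, 4 of 10 meningeal fibroblast, 4 of 10 astrocyte, 2 of 10 oligodendrocyte and 1 of 10 ependymal and choroid plexus markers higher in cre+ libraries, and 5 of 14 neuron, 8 of 14 immature neuron and 1 of 9 blood cell markers lower. Of 8 oligodendrocyte precursor markers 1 was higher and 1 lower, and 0 of 10 microglia and 0 of 12 proliferation markers were called. Over all genes, DESeq2 called 6.7% higher and 5.48% lower. The marker lists were chosen with earlier results of these data known, so these counts are descriptions. Replicate 1 of cre+ and replicate 4 of cre- stood apart, the first with the highest endothelial mean of all libraries and the second with the highest among cre- libraries. In bulk RNA, fewer cells of a type and less RNA per cell cannot be told apart.

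Rcor2 was the CoREST scaffold that was lower in cre+ libraries. It lies at chr19:7241690-7252591 on the plus strand (GRCm39, GENCODE M39), and 1.44% of its exonic bases are shared with another gene, Mark2 on the opposite strand. In mouse, RCOR2 is known from embryonic stem cells and from progenitors of the cortex. L3mbtl1, which encodes an MBT reader that compacts nucleosomes, lies at chr2:162785241-162819047 on the plus strand and shares no exonic base with another gene. The promoter of Rcor2 is shown because the set was built around this gene and L3mbtl1. The run covers 250 bases before and 50 bases after the transcription start of the RefSeq promoter table (build GRCm38.p6), and its place in GRCm39 was found by exact match, at chr19:7244509-7244808. It lies inside the GENCODE M39 span given above, so its start is not the outermost annotated start of Rcor2. In the gene positions deposited with the counts, Rcor2 starts at 7244690, within the run. Capitals mark matches to the motifs named below.
Rcor2: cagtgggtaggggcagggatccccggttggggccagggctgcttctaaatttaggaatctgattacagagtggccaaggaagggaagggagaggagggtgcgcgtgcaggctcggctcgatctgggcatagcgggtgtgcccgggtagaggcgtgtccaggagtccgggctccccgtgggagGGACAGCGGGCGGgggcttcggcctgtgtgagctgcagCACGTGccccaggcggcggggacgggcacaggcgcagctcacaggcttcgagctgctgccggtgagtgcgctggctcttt
The motifs searched on both strands were TCAGCAC and GGACAGC (letters from the left and right parts of the RE1 element), GGGCGG (GC box), TGACGT (CRE core) and CACGTG (E box). The capitals in Rcor2 are GGACAGC, which began 68 bases before the start, GGGCGG directly after it at 61 bases, and CACGTG at 30 bases. Of 32851 promoters in the table, 6.56% held GGACAGC, 35.7% GGGCGG, 7.15% CACGTG, 7.51% TGACGT and 5.12% TCAGCAC. Among 8 promoters of 7 members examined, GGACAGC was found in those of Rcor2 and L3mbtl2, CACGTG in that of Rcor2, and TCAGCAC and TGACGT in none. Rcor3 held 7 GGGCGG matches and Rcor1 held 6. The Rcor2 promoter was 67.3% G and C, against a median of 52.7% over the table. These matches describe letters and do not show that a factor binds there.

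Rcor2 stood at 28.3, 27.3 and 27.6 CPM in cre+ libraries, against 43.99, 44.5, 42.9 and 41.2 CPM in cre- libraries. The groups were far apart and each was narrow, so that the highest cre+ library lay well below the lowest cre- library. The cre+ mean was 27.7 ± 0.512 CPM (SD, n = 3) and the cre- mean 43.2 ± 1.48 CPM (SD, n = 4), so cre+ libraries had 64.2% of the cre- level. On the log2 scale the difference of cre+ minus cre- was -0.64 ± 0.09 (SE, edgeR). It ran from -0.66 to -0.62 when each library was left out in turn.

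L3mbtl1 had 3.44, 4.15 and 4.01 CPM in cre+ libraries, from 298 to 306 reads each. In cre- libraries it had 8.57, 14.4, 11.9 and 15.1 CPM, from 756 to 1217 reads each. The cre+ libraries were close together and low, and the cre- libraries were spread, with replicate 1 the lowest of them. Means were 3.87 ± 0.378 CPM in cre+ (SD, n = 3) and 12.5 ± 2.97 CPM in cre- (SD, n = 4), which puts cre+ at 30.9% of cre-. The log2 difference was -1.69 ± 0.24 (SE), and -1.84 to -1.59 with each library left out in turn.

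**Figure D1:**
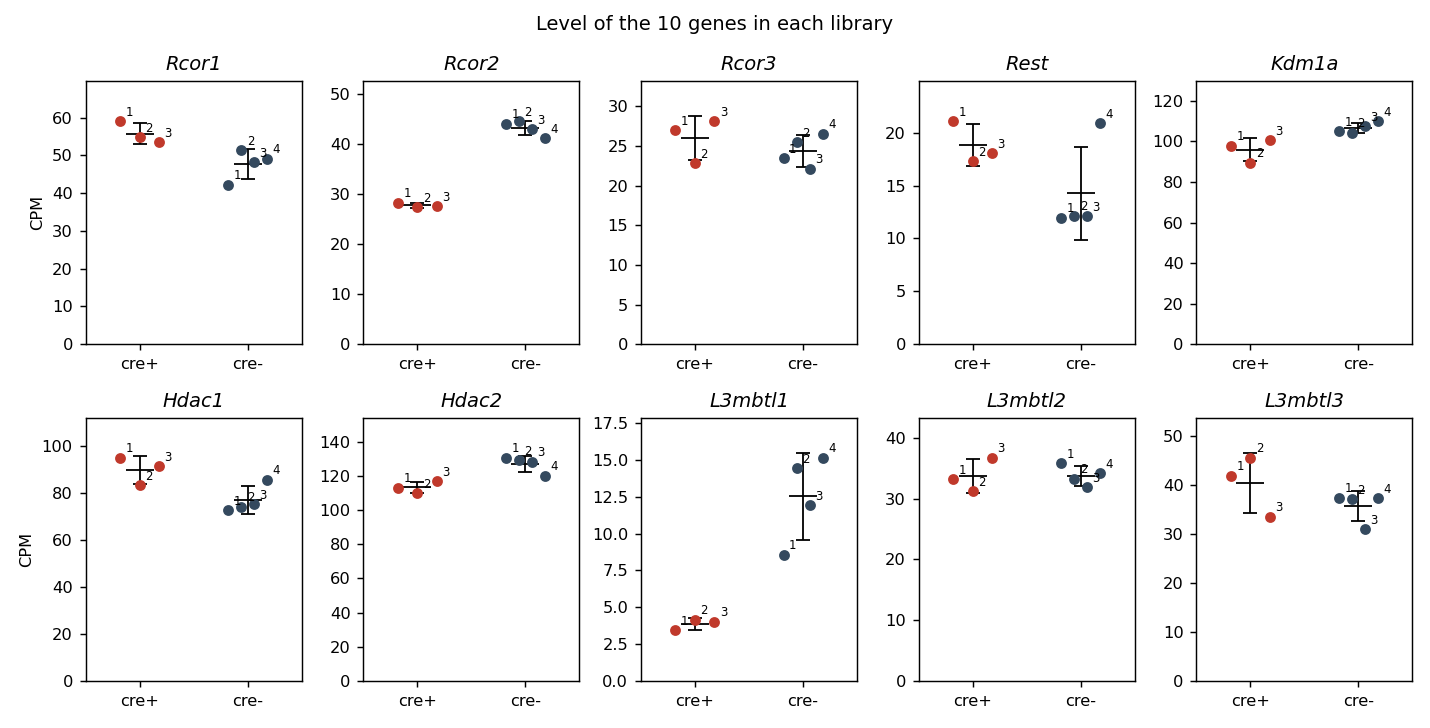
Level of each of the 10 genes in CPM (vertical axis, from 0, with its own range for each gene) in cre+ (red) and cre- (blue) libraries. Points are libraries labelled by replicate number, the long bar is the mean and the whisker the SD. Rcor2 and L3mbtl1 show the widest gaps between groups, and Rest shows cre- replicate 4 at 20.9 CPM beside 3 cre- libraries near 12 CPM.

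Rcor1 and Rcor3, like every gene tested, did not pass the edgeR test between genotypes. RCOR1, the founding CoREST protein, is widely expressed. Rcor1 had 59.07, 54.9 and 53.5 CPM in cre+ libraries, against 42.2, 51.5, 48.2 and 49.1 CPM in cre- libraries. All cre+ values were above all cre- values, but the log2 difference of 0.23 ± 0.10 (SE) did not pass the test (edgeR adjusted p = 0.253). RCOR3 is known in mouse blood cells for countering KDM1A. Rcor3 had 26.97, 22.8 and 28.1 CPM in cre+ libraries, against 23.4, 25.5, 22.1 and 26.6 CPM in cre- libraries. These groups overlapped, with a log2 difference of 0.09 ± 0.12 (edgeR adjusted p = 0.736) and a 95% interval of -0.19 to 0.37. With library totals in place of TMM factors the sign turned (-0.03), on a scale on which the median of all genes was -0.16.

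The make-up of the scaffold family shifted within each library, a measure that does not depend on scaling between libraries. Counts were divided by exon length first. Rcor2 supplied 43.1%, 44.5% and 44.2% of the family in cre+ libraries, against 61.3%, 57.4%, 58.5% and 56.2% in cre- libraries. Rcor1 supplied 45.6%, 45.3% and 43.5% in cre+ libraries, against 29.8%, 33.6%, 33.3% and 33.9% in cre- libraries. On this length-scaled measure Rcor2 was the leading scaffold transcript in cre- libraries, and in cre+ libraries Rcor1 and Rcor2 were about level. The order depends on the scaling by length. In raw counts Rcor1 was above Rcor2 in all 3 cre+ libraries and in 3 of 4 cre- libraries, and the difference of the Rcor1 to Rcor2 ratio was 0.905, against 0.459 with length scaling. Of the exonic bases of Rcor1, 23.9% are shared with other genes, which bears on its length-scaled counts. The Rcor1 to Rcor2 ratio was 1.02 ± 0.0377 in cre+ (SD, n = 3) and 0.561 ± 0.0523 in cre- (SD, n = 4). Since Rcor2 was picked for its low level, these shares are a description.

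**Figure D2:**
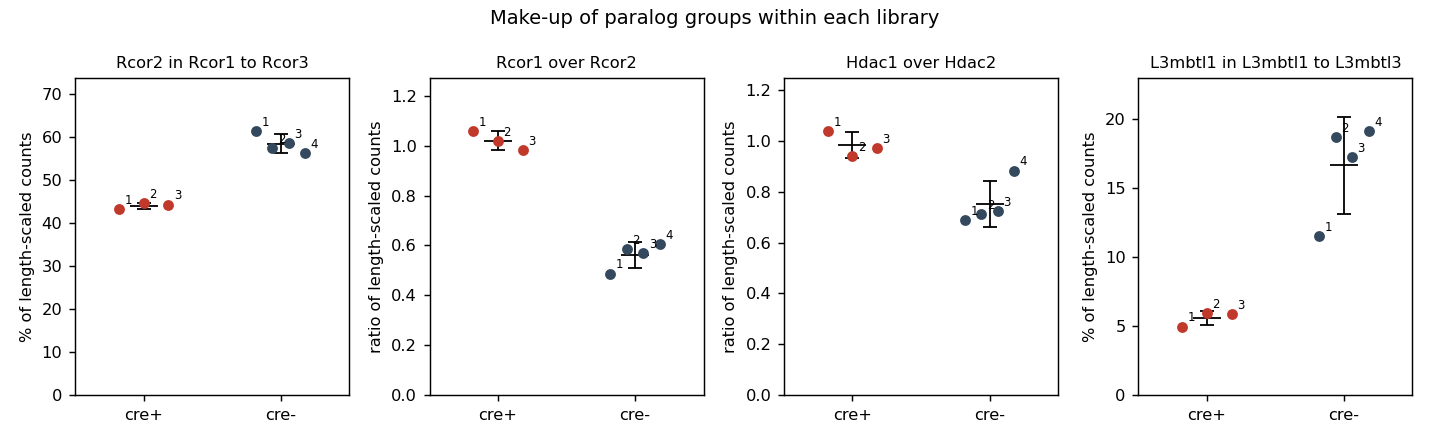
Share or ratio of length-scaled counts within each library (vertical axes from 0, in percent or as a ratio) for cre+ (red) and cre- (blue). Points are libraries labelled by replicate number, with the mean and SD. The Rcor2 share was 43.9 ± 0.724% in cre+ and 58.3 ± 2.19% in cre-, and the L3mbtl1 share 5.57 ± 0.537% in cre+ and 16.6 ± 3.51% in cre-.

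The 3 enzymes had log2 differences between -0.17 and 0.23. KDM1A removes methyl groups from histone H3 and needs an RCOR protein to act on nucleosomes. Kdm1a had 97.8, 89.6 and 100.5 CPM in cre+ libraries, against 105.0, 104.3, 107.6 and 110.0 CPM in cre- libraries. The groups did not overlap, yet the gap was small (log2 difference -0.15 ± 0.08, edgeR adjusted p = 0.349). Of its exonic bases, 11.3% are shared with other genes, and it is not known whether the counting used strand.

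HDAC1 and HDAC2 are close paralogs that remove acetyl groups from histones in CoREST, SIN3 and NuRD. Hdac1 had 94.8, 83.1 and 91.3 CPM in cre+ libraries, against 72.5, 73.9, 75.0 and 85.5 CPM in cre- libraries. The groups overlapped through cre- replicate 4 (log2 difference 0.23 ± 0.10, edgeR adjusted p = 0.24). Hdac2 had 113.2, 109.8 and 116.8 CPM in cre+ libraries, against 130.6, 129.1, 128.4 and 120.1 CPM in cre- libraries. It was lower in every cre+ library, with a log2 difference of -0.17 ± 0.08 that did not pass (edgeR adjusted p = 0.304). The length-scaled Hdac1 to Hdac2 ratio was 1.04, 0.939 and 0.970 in cre+ libraries, against 0.688, 0.711, 0.724 and 0.883 in cre- libraries. These ratios did not overlap, and cre- replicate 4 lay nearest to the cre+ libraries. A processed copy of Hdac1 is annotated, so some reads may be shared with it.

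Rest had 21.1, 17.3 and 18.1 CPM in cre+ libraries, against 11.97, 12.1, 12.1 and 20.9 CPM in cre- libraries. Replicates 1 to 3 of cre- were nearly equal and below all cre+ libraries, and cre- replicate 4 was close to the highest cre+ library. The log2 difference was 0.40 ± 0.22 (SE, edgeR adjusted p = 0.358), with a 95% interval of -0.11 to 0.91. Without cre- replicate 4, the high library of its group, it was 0.64 ± 0.15 (edgeR adjusted p = 0.0822). DESeq2, which did not call Rest on 7 libraries, called it then (log2 difference 0.65, adjusted p = 0.00271). With any other library left out, the edgeR difference was 0.30 to 0.46 and DESeq2 did not call Rest (adjusted p of 0.395 to 0.626). These DESeq2 fits were chosen after seeing the data, and leaving out cre- replicate 4 itself removes the overlap of the groups.

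Rest and the endothelial markers were high in the same libraries. Mean log2 CPM of these markers was 10.02, 9.49 and 9.51 in cre+ libraries, against 8.94, 8.84, 8.94 and 9.35 in cre- libraries. Replicate 4 was the highest cre- library for both, and cre+ replicate 1 the highest of all for both. Log2 CPM of Rest minus that mean was -5.62, -5.37 and -5.33 in cre+ libraries, against -5.35, -5.23, -5.34 and -4.97 in cre- libraries, so on this measure the groups overlapped. With the endothelial mean as a covariate the log2 difference of Rest changed sign (-0.26 ± 0.27, edgeR adjusted p = 0.949). Every cre+ library had a higher endothelial mean than any cre- library, so this fit cannot tell the marker level apart from genotype.

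Among the MBT readers, L3MBTL2 is a subunit of a variant Polycomb complex built on PCGF6, and L3MBTL3 is known from the maturation of blood cells. L3mbtl2 had 33.2, 31.2 and 36.7 CPM in cre+ libraries, against 35.8, 33.3, 31.9 and 34.2 CPM in cre- libraries. Its means were nearly the same, 33.7 ± 2.77 CPM in cre+ and 33.8 ± 1.64 CPM in cre-, with a 95% interval of the log2 difference from -0.23 to 0.23 (edgeR adjusted p = 0.991). Of its exonic bases, 16% are shared with other genes. L3mbtl3 had 41.9, 45.5 and 33.5 CPM in cre+ libraries, against 37.4, 37.1, 31.0 and 37.3 CPM in cre- libraries. The groups overlapped, with 1 library of each group set low (log2 difference 0.18 ± 0.13, edgeR adjusted p = 0.499). L3mbtl1 supplied 4.95%, 5.91% and 5.85% of the length-scaled counts of these 3 genes in cre+ libraries, against 11.5%, 18.7%, 17.2% and 19.1% in cre- libraries.

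**Figure D3:**
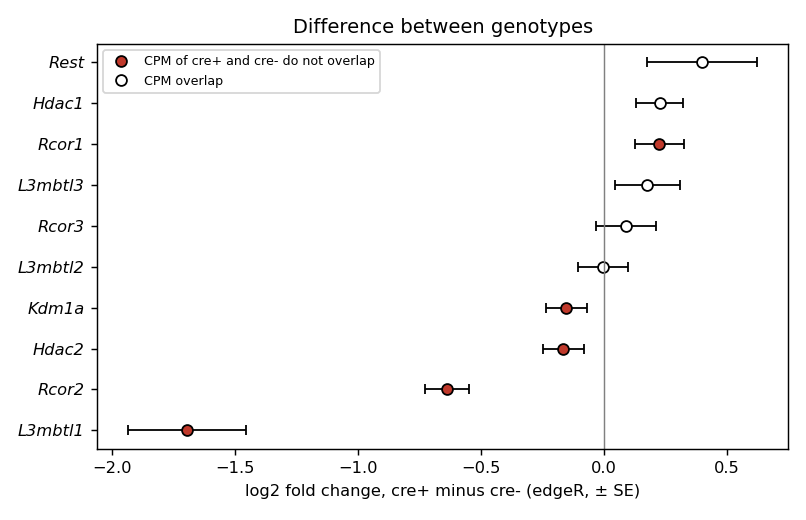
Log2 difference of cre+ minus cre- (horizontal axis, edgeR, whiskers are SE) for the 10 genes in order of size. Filled points have CPM values that do not overlap between groups and open points have values that do. Apart from Rcor2 at -0.64 and L3mbtl1 at -1.69, values ran from -0.17 for Hdac2 to 0.40 for Rest.

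Counted over the set, edgeR called 0 of 10 members at an adjusted p under 0.05, as it called 0 of 21542 genes (0%). The lowest edgeR adjusted p of any gene was 0.0939. Genes with different unadjusted p share this value, so it does not rank them. limma-voom also called 0 genes. At an unadjusted p under 0.05, edgeR had 1 member higher and 2 lower, against 10.2% of genes higher and 9.75% lower. DESeq2, the test the study used, called 2 members lower and 0 higher, where it called 5.48% of 16345 genes lower and 6.7% higher. In both tests the 2 lower members are Rcor2 and L3mbtl1, which were picked for being low, so nothing is read from these counts. CPM values did not overlap for 4 members that were lower and 1 that was higher, where 9.72% of genes were lower without overlap and 8.94% higher. The 4 include Rcor2 and L3mbtl1, so nothing is read from this count either, and of the 8 other members Kdm1a and Hdac2 were lower and Rcor1 higher without overlap. The 8 members not picked for their values had edgeR adjusted p of 0.24 to 0.991 and DESeq2 adjusted p of 0.167 to 0.988. The median log2 difference was 0.04 over the set and -0.04 over all genes tested.

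Per kilobase of exon, levels are given by group, since the genotypes differ in their order. In cre+ libraries Hdac2 had 19.5 ± 0.603 CPM per kb, Hdac1 19.2 ± 1.28 and Kdm1a 17.1 ± 1.02 (SD, n = 3), and Hdac2 and Hdac1 lay within their spread. Rcor1 (6.90 ± 0.359) and Rcor2 (6.76 ± 0.125) followed, also within their spread, then L3mbtl2 (5.27 ± 0.433), L3mbtl3 (3.56 ± 0.543), Rest (1.94 ± 0.206), Rcor3 (1.73 ± 0.185) and L3mbtl1 (0.521 ± 0.051). Rest and Rcor3 did not differ beyond their spread, and L3mbtl1 was the lowest. In cre- libraries Hdac2 had 21.9 ± 0.812 CPM per kb, Kdm1a 19.1 ± 0.464 and Hdac1 16.4 ± 1.27 (SD, n = 4), each apart by more than its SD. Rcor2 (10.5 ± 0.361) came next, then Rcor1 (5.90 ± 0.487), L3mbtl2 (5.28 ± 0.256) and L3mbtl3 (3.15 ± 0.277). L3mbtl1 (1.69 ± 0.401), Rcor3 (1.63 ± 0.133) and Rest (1.47 ± 0.454) closed the cre- order within their spreads.

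The genes whose profile was most like that of Rcor2 were sought by the root mean square difference of centred log2 CPM over the 7 libraries, among 15984 genes. Rcor2 and L3mbtl1 were picked for being low in cre+ libraries, and these profiles contain that difference. The likeness is therefore a description. Igfbpl1, a secreted protein gene of newborn neurons, was nearest at 0.0422, with 131.6 ± 3.17 CPM in cre+ and 213.3 ± 4.47 CPM in cre-. Sp8, a transcription factor gene of interneuron precursors, followed at 0.0519, with 69.1 ± 3.06 CPM in cre+ and 104.7 ± 7.61 CPM in cre-. Both are on the immature neuron marker list of this work. That list was chosen with earlier results of these data known, so the match is a description too. Pdzd7 (0.0669), Klhl3 (0.0741) and Fbxl2 (0.0778) completed the 5 nearest. For L3mbtl1 the nearest gene was Rskr at 0.11, with 0.644 ± 0.0933 CPM in cre+ and 1.99 ± 0.551 CPM in cre-, and the next 4 lay farther away, Rnf207 (0.264), LOC118567765 (0.297), Slc39a2 (0.297) and Inha (0.305).

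Both genes were also set against the immature neuron markers as a list. Of these 14 markers, 14 had a negative log2 difference and DESeq2 called 8 lower, against 5.48% of all genes. Since the list was chosen with earlier results of these data known, these counts are a description. Log2 CPM of Rcor2 minus the mean log2 CPM of the list was -1.91, -2.16 and -2.52 in cre+ libraries, against -2.18, -2.08, -2.18 and -2.09 in cre- libraries. The groups overlapped, with a difference of -0.06 and an SD of 0.307 in cre+ and 0.0554 in cre-. Rcor2 did not follow the list from one cre+ library to the next. Relative to the cre- mean, the list stood at -0.83, -0.64 and -0.26 in cre+ libraries, and Rcor2 at -0.61, -0.66 and -0.64. For L3mbtl1, log2 CPM minus the list mean was -4.94, -4.87 and -5.30 in cre+ libraries, against -4.54, -3.70, -4.03 and -3.53 in cre- libraries, with no overlap and a difference of -1.09. Set against the neuron markers the difference was 0.13 for Rcor2 and -0.89 for L3mbtl1, and the groups overlapped for both genes. The part of these markers in the levels of Rcor2 and L3mbtl1 was not tested. With the endothelial mean as a covariate the log2 difference was -0.61 ± 0.16 for Rcor2 and -1.73 ± 0.40 for L3mbtl1 (SE). Without the covariate the values were -0.64 ± 0.09 and -1.69 ± 0.24. That mean did not overlap between genotypes, so the fit cannot tell it apart from genotype and nothing is concluded from it. In fits with no covariate, the log2 difference without cre+ replicate 1 was -0.66 for Rcor2 and -1.62 for L3mbtl1. Without cre- replicate 4 it was -0.66 and -1.59.

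**Figure D4:**
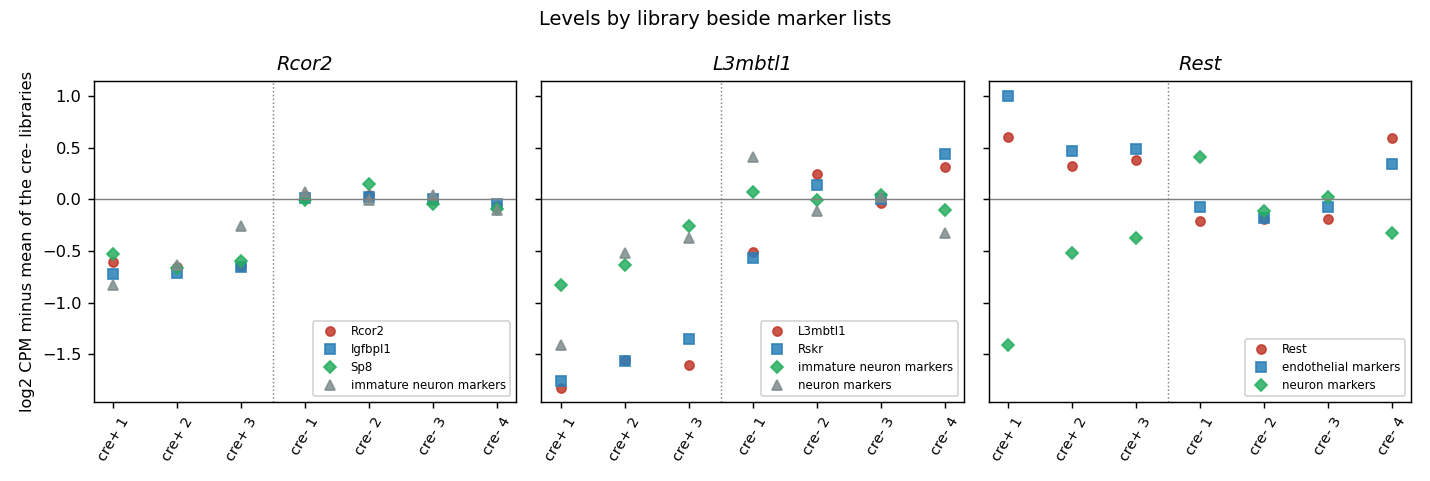
Log2 CPM of each library minus the mean of the cre- libraries (vertical axis) for Rcor2, L3mbtl1 and Rest, each beside its nearest genes or marker list means, with cre+ libraries left of the dotted line and cre- libraries right of it. Rcor2 lay between -0.66 and -0.61 in cre+ libraries, where the immature neuron markers lay between -0.83 and -0.26, and Rest shared its high cre- replicate 4 (0.59) with the endothelial markers (0.34).

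The nearest protein-coding genes on the chromosome, 2 on each side, were set beside Rcor2 and L3mbtl1. Around Rcor2, Cox8a (0.30 ± 0.15, edgeR adjusted p = 0.323), Naa40 (-0.40 ± 0.15, adjusted p = 0.188), Mark2 (0.01 ± 0.09, adjusted p = 0.98) and Spindoc (-0.17 ± 0.11, adjusted p = 0.423) did not pass the test. Mark2, which overlaps the end of Rcor2 on the other strand, had 114.6 ± 3.01 CPM in cre+ and 114.1 ± 6.52 CPM in cre-. Around L3mbtl1, the log2 differences were -0.67 ± 0.30 for Ptprt (edgeR adjusted p = 0.253), -0.24 ± 0.14 for Srsf6 (adjusted p = 0.361), -0.35 ± 0.66 for Sgk2 (adjusted p = 0.821) and 0.10 ± 0.15 for Ift52 (adjusted p = 0.779). None of them passed.

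The other genes of these pathways were described from 5 lists, written from general knowledge but with earlier results of these data known. The counts of these lists are therefore descriptions. Over all genes, DESeq2 called 5.48% lower and 6.7% higher. At an unadjusted edgeR p under 0.05, 9.75% of genes were lower and 10.2% higher. Nothing is read from a list count near these shares. In the list of CoREST and REST cofactors, which holds the HMG20, SIN3, MIER, CTBP and EHMT genes among others, edgeR called 0 of 26 at an adjusted p under 0.05, with 3 higher and 3 lower at an unadjusted p under 0.05. DESeq2 called 1 lower and 0 higher, and the median log2 difference was 0.04. The call was Zmym3, an MYM-type zinc finger subunit of KDM1A complexes, with 85.0 ± 7.48 CPM in cre+ and 116.9 ± 14.8 CPM in cre- (log2 difference -0.46 ± 0.12, DESeq2 adjusted p = 0.0198, edgeR adjusted p = 0.108). DESeq2 called 0 genes of the list without cre+ replicate 1, cre+ replicate 2, cre- replicate 2 or cre- replicate 3, and 3 without cre+ replicate 3. Cdyl, a chromodomain corepressor of REST, had a log2 difference of 0.46 ± 0.16 (edgeR adjusted p = 0.18) and Ctbp2, which encodes a dimeric corepressor, one of 0.39 ± 0.15 (adjusted p = 0.202). Mier2, whose product scaffolds HDAC1 and HDAC2 apart from KDM1A, had -0.38 ± 0.14 (adjusted p = 0.193).

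DNA-binding proteins that bring KDM1A and CoREST to genes, many through a SNAG domain, had a median log2 difference of -0.51. Of 14 listed, 13 were tested, since Gfi1b had too few reads. DESeq2 called 5 lower and 0 higher, against 5.48% and 6.7% of all genes. In edgeR 0 were called, with 6 lower and 0 higher at an unadjusted p under 0.05 (9.75% and 10.2% of all genes). Insm1, a factor of newborn neurons and endocrine cells, had 40.6, 42.7 and 42.5 CPM in cre+ libraries, against 67.1, 72.5, 71.4 and 56.2 CPM in cre- libraries. No cre+ library reached the cre- range, and the log2 difference was -0.67 ± 0.11 (DESeq2 adjusted p = 6.48e-05, edgeR adjusted p = 0.0939). Scrt2, a SNAG repressor gene of migrating neurons, had 35.2 ± 4.85 CPM in cre+ and 59.6 ± 7.06 CPM in cre- (-0.76 ± 0.14, DESeq2 adjusted p = 0.000242, edgeR adjusted p = 0.0939). Bcl11a (-0.51 ± 0.13) and Bcl11b (-0.76 ± 0.21), zinc finger genes of cortical and striatal neurons, were called by DESeq2 too, as was Scrt1 (-0.51 ± 0.16), which is named in addition to the 4 genes with the smallest p. DESeq2 called 2 genes of this list without cre+ replicate 1, cre+ replicate 2 or cre- replicate 3, and 3 without cre- replicate 2, all lower. Immature neuron markers moved in the same direction in these libraries, and their part was not tested.

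The partners of L3MBTL2 in its Polycomb complex, 12 genes, had 1 DESeq2 call, higher, and a median log2 difference of -0.03. That count is near the 6.7% of all genes that DESeq2 called higher, so nothing is read from it. Rybp, which encodes a RING-binding subunit, had 52.6, 47.9 and 51.4 CPM in cre+ libraries, against 39.7, 32.9, 36.3 and 38.6 CPM in cre- libraries. All cre+ libraries were above the cre- range (log2 difference 0.46 ± 0.10, DESeq2 adjusted p = 0.00365, edgeR adjusted p = 0.0939). Without cre+ replicate 1 DESeq2 called 0 genes of this list. Pcgf6, the subunit that defines the complex, had -0.62 ± 0.22 (edgeR adjusted p = 0.175), Ring1 -0.25 ± 0.12 (adjusted p = 0.284) and Tfdp1 -0.20 ± 0.11 (adjusted p = 0.336). Of 6 other genes with MBT domains, edgeR and DESeq2 called 0, with 1 lower at an unadjusted edgeR p under 0.05 (9.75% of all genes). That gene was Mbtd1, a subunit gene of an acetyltransferase complex, at 55.0 ± 1.96 CPM in cre+ and 67.4 ± 6.32 CPM in cre- (-0.29 ± 0.10, edgeR adjusted p = 0.172). Scml2, a Polycomb gene at 2.54 ± 0.509 CPM in cre+ and 3.86 ± 0.8 CPM in cre-, had -0.61 ± 0.28 (adjusted p = 0.268).

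Of 28 genes with RE1 sites that REST is known to repress, DESeq2 called 13 lower and 0 higher, against 5.48% and 6.7% of all genes. In edgeR 0 were called, with 17 lower and 0 higher at an unadjusted p under 0.05 (9.75% and 10.2% of all genes). Of the log2 differences in the list 27 were negative, and the median of the list was -0.64. Unc13a, which primes synaptic vesicles, had 71.2, 89.4 and 105.0 CPM in cre+ libraries, against 219.8, 208.8, 205.6 and 132.8 CPM in cre- libraries. The cre+ libraries lay below the cre- range, in which replicate 4 was lowest (log2 difference -1.11 ± 0.20, DESeq2 adjusted p = 6.36e-05, edgeR adjusted p = 0.0939). Celsr3, an axon guidance cadherin, had 157.6 ± 31.6 CPM in cre+ and 258.4 ± 23.0 CPM in cre- (-0.71 ± 0.15, edgeR adjusted p = 0.0939). The nicotinic receptor subunit Chrnb2 (-0.57 ± 0.14) and the AMPA receptor subunit Gria2 (-0.97 ± 0.25) were also called by DESeq2. The summed level of the list was 1633 to 2844 CPM in cre+ libraries and 2812 to 4573 CPM in cre- libraries. DESeq2 called 5 genes of the list without cre+ replicate 1 or 2, 6 without cre- replicate 3, 7 without cre- replicate 1 or 2, 15 without cre- replicate 4 and 16 without cre+ replicate 3. Snap25, Stmn2 and Tubb3 are also on the neuron marker list, of which DESeq2 called 5 of 14 lower, with a median log2 difference of -0.75. Several genes of the list are among those the study named as lower in these samples, so the list is not independent evidence of a direction. The part of the neuron share in the list was not tested.

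**Figure D5:**
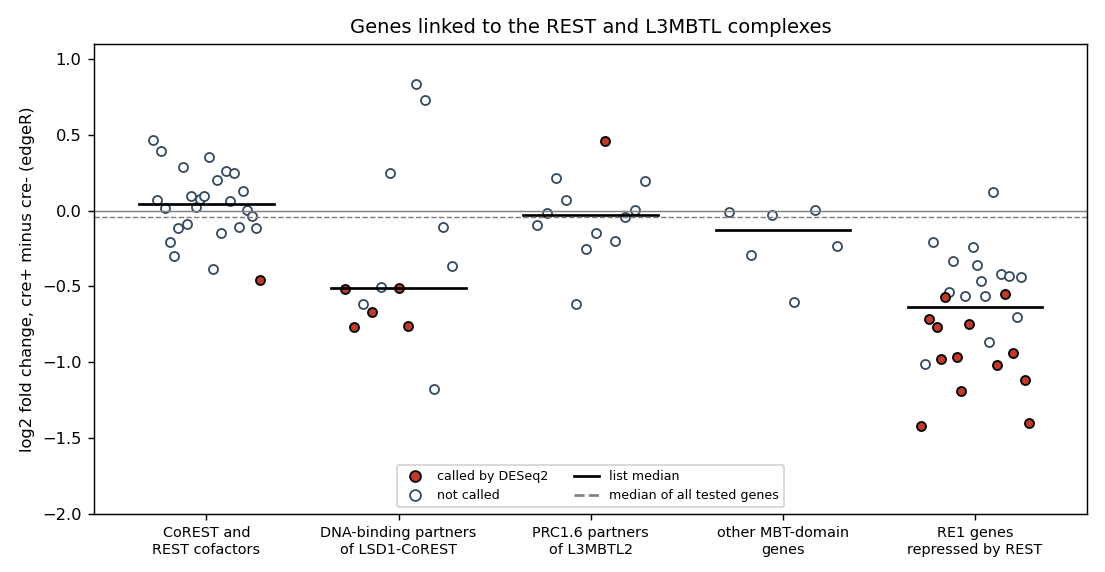
Log2 difference of cre+ minus cre- (vertical axis, edgeR) for each tested gene of the 5 lists. Filled points were called by DESeq2, open points were not, black bars are list medians and the dashed line is the median of all genes tested. Medians were 0.04 for cofactors, -0.51 for DNA-binding partners, -0.03 for partners of L3MBTL2, -0.13 for other MBT genes and -0.64 for RE1 genes.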

How the data were processed

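RNA of neurons from 7 mice was sequenced from poly(A) libraries, 3 from il4ra fl/fl.Syn cre+ mice and 4 from cre- littermates. As the study's methods and the processing notes of the submitters give it, fastp and FastQC served for trimming and quality control of reads, STAR for alignment to GRCm39, SAMtools for filtering, StringTie for counting and DESeq2 for testing. For versions, annotation and strand, the sources used here give nothing. The deposited values used were whole-number counts per gene, 46382 entries per library, of which 49 repeats were dropped. Of 35506 Ensembl identifiers, 99.4% were in GENCODE M39. A second set of files with the authors' normalized values was not used. Codes in the column headers differ in their letters between genotypes, and what they mark cannot be told apart from genotype.

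Genotypes were compared by edgeR 4.0.16 (R 4.3.3), with its quasi-likelihood F-test on TMM-scaled counts of 21542 genes that passed filterByExpr, robust estimation and genotype alone in the model. P-values were adjusted over these genes by Benjamini and Hochberg, with 0.05 as threshold. SE is the size of the log2 difference over the square root of F, and intervals use the degrees of freedom of that test. DESeq2 1.42.0 (29539 genes with at least 1 count, of which 16345 received an adjusted p) and limma 3.58.1 with voom were alternatives, beside other size factors, filters, a replicate block, the endothelial covariate and leaving out each library. CPM used TMM factors and log2 CPM a prior count of 2. The tests were checked on simulated counts. These were drawn gene by gene, without a change in cell make-up shared between genes. The check therefore does not decide between edgeR and DESeq2 in these data. Promoter sequence was examined for 7 members, and that of 1 further member is not reported here. Levels per kilobase used the union of GENCODE M39 exons. Tables were made with Python 3.11.15.

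The 10 members, the 5 pathway lists and the 12 marker lists were chosen with earlier results of these data known. Named genes were the members, Il4ra, up to 4 genes per pathway list with the smallest edgeR p, the 5 genes most like Rcor2 and L3mbtl1 among those with a mean CPM of 1 or more (leaving out 1 predicted gene for Rcor2 and 3 for L3mbtl1), 2 neighbours per side and defining markers. The replicates are mice, so p-values measure the spread between animals. Libraries held 68213223 to 94376841 counted reads and members 298 to 11518 reads per library, and the SE of edgeR covers counting error together with that spread. Replicate numbers were not treated as pairs in the main fit. Deviations of libraries with the same number correlated at -0.0267, -0.00357 and 0.0876, and those with different numbers at -0.111 to 0.16. Such values from 7 libraries do not exclude a pairing.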

Additional observations from a re-analysis of the deposited data

Results flagged for a closer look

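In the cre- group, 1 library stood apart from the other 3 for 2 of the 10 members. Rest was at 20.9 CPM in cre- replicate 4, where the gap to the nearest cre- library took up 0.98 of the range of the 4 libraries. L3mbtl3 was at 31.0 CPM in cre- replicate 3, with a gap of 0.964 of the range. Both are past the 95% critical value of Dixon's test, and chance alone puts about 1 in 20 groups past it. The cre+ group, with 3 libraries, was not examined in this way. Rest in cre- replicate 4 came with the highest endothelial mean of the cre- libraries (9.35, against 8.84 to 8.94 in the other 3, in log2 CPM). That library also had the lowest neuron marker mean of the cre- libraries (7.07). The part of vessel cells in the level of Rest was not tested, since the covariate fit given above cannot tell the endothelial mean apart from genotype.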

How the results depend on the processing

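With edgeR, 0 genes were called under each choice of factors and filter, under limma-voom and with the replicate block, 1 gene with the endothelial covariate, and 0 to 5 with a library left out (5 without cre+ replicate 1). DESeq2 called 1990 genes, 1095 higher and 895 lower. In DESeq2 fits with a library left out, which were chosen after seeing the data, the count ran from 755 (without cre- replicate 2) to 2258 (without cre+ replicate 3, of which 940 were higher and 1318 lower), and was 1103 and 1265 without cre+ replicates 1 and 2, 1681, 919 and 2210 without cre- replicates 1, 3 and 4. By list, DESeq2 called 2 members (2 to 3 with a library left out), 1 cofactor (0 to 3), 5 DNA-binding partners (2 to 6), 1 partner of L3MBTL2 (0 to 2), 0 other MBT genes (0 to 1) and 13 RE1 genes (5 to 16, with 7 without cre- replicate 1 or 2 and 15 without cre- replicate 4). The third member was Rest, higher without cre- replicate 4. The Rcor2 share of its family differed by -14.4 percentage points, and by -12.2 with raw counts in place of length-scaled ones.

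Signs turned for Rcor3 with library totals (-0.030) and the endothelial covariate (-0.057) and for Rest with that covariate (-0.26). L3mbtl2, near 0 throughout, turned to 0.0035 with DESeq2, 0.0046 with RLE factors, 0.00044 with the replicate block and lay between -0.069 and 0.049 with a library left out in edgeR, where it turned to 0.0029, 0.049, 0.029 and 0.00079, and in DESeq2, where it turned to 0.014, 0.061, 0.035 and 0.0104. With the replicate block, Rcor2 differed by -0.66, L3mbtl1 by -1.56 and Rest by 0.63 (0.40 without it), and as without the block no gene was called. Raw counts in place of length-scaled ones moved the difference of the Rcor1 share from 12.2 to 9.61 percentage points, that of the Rcor1 to Rcor2 ratio from 0.459 to 0.905 and that of the Kdm1a to Rcor2 ratio from 0.721 to 0.985. The 5 genes nearest to Rcor2 and to L3mbtl1 were the same with a prior count of 0.5. With 3 and 4 animals, a log2 difference of up to 0.91 for Rest and up to 0.23 in either direction for L3mbtl2 lay within the 95% interval.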
